A study of Mus musculus with 6 samples.

Results

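The transcripts of 34 genes of the PI3K-AKT-mTOR pathway were followed in mouse bone marrow-derived macrophages, primary cells differentiated in culture. The genes were chosen by symbol, as kinases, regulatory subunits, adaptors, lipid and protein phosphatases, TSC-mTOR genes and FOXO factors, and each matched 1 of the 55401 Ensembl genes of the deposited count matrix. A total of 33 were tested among 15959 genes, and Irs1 was too low. Macrophages of the C57BL/6 strain had been transfected with a non-targeting control siRNA (siNC) in 3 libraries and with Piezo1 siRNA (siPiezo1) in the other 3, and every culture had been stretched for 4 h. The series title names a PI3K-AKT-Ccnd1 axis, through which the stretch-activated cation channel Piezo1 is proposed to promote macrophage proliferation. The comparison shows only which transcripts differ between the siRNA groups, not how that axis works. Whether the replicates are separate cultures or animals is not stated. The p-values therefore cover only how far these samples spread, which may be technical variation. Unstretched cells were not analysed here.

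Class I PI3K enzymes phosphorylate a membrane lipid, phosphatidylinositol bisphosphate, to the trisphosphate, which recruits AKT and its activating kinase PDK1 to the membrane. AKT in turn inhibits GSK3, the TSC complex and the FOXO transcription factors. Loss of TSC activity lets the small GTPase RHEB switch on the mTOR complex that drives protein synthesis and growth. Lipid phosphatases remove the phosphates again, and PHLPP phosphatases dephosphorylate AKT. In macrophages the pathway carries signals of the growth factor receptor CSF1R, of integrins and of Toll-like receptors. The pathway is switched mainly by phosphorylation, which RNA levels do not report.

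The start and the end of the named axis differed between the groups. Piezo1 stood at 180, 285 and 189 CPM (counts put on a common library size with TMM factors) in siNC 1, 2 and 3, and at 111, 109 and 113 CPM in siPiezo1 1, 2 and 3. Ccnd1, which encodes cyclin D1, stood at 29.1, 53.8 and 30.8 CPM in siNC against 13.9, 18.5 and 14.2 CPM in siPiezo1. The groups overlapped for neither gene. Neither passed the threshold of 0.05 with all 6 libraries (adjusted p = 0.744 for both, edgeR's quasi-likelihood test, Benjamini-Hochberg adjustment). DESeq2, a second count test, called both (adjusted p = 0.000982 for Piezo1 and 0.00269 for Ccnd1).

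One library, siNC 2, stood apart from the other 5, so the fold changes of the members were also computed without it. Across genes, the correlation of log2 CPM was 0.965 to 0.975 in pairs with siNC 2 and 0.984 to 0.989 in all other pairs. The summed level of 10 neutrophil markers was 3446 CPM in siNC 2 and 634 to 709 CPM elsewhere, and all 10 were highest there. The summed level of 10 macrophage markers was 28259 CPM in siNC 2 and 34652 to 37590 CPM elsewhere. Most of that sum was Lyz2, at 20623 CPM in siNC 2 and 24111 to 26819 CPM elsewhere. Of the 10, 8 were lowest in siNC 2, while Cd14 was highest there and Itgam lay between the other libraries. Of 7 T cell markers, 5 were listed at 0 in every library (Cd3e, Cd3d, Cd3g, Cd8a and Trac), and the summed level of the list was 2.12 to 16.5 CPM. Most of that was Cd4, at 16.5, 1.83 and 13.2 CPM in siNC against 4.70, 5.39 and 1.88 CPM in siPiezo1. DESeq2 called Cd4 lower without siNC 2 (adjusted p = 0.000332), and edgeR did not (adjusted p = 0.141). The part of cell content in the pathway values was not tested. In bulk samples, fewer cells of a type and less RNA per cell cannot be told apart. Totals were 61086684 to 75052745 estimated counts per library.

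No member of the pathway passed the threshold with all 6 libraries. In edgeR's quasi-likelihood test 0 of 33 members were called, beside 0.00627% of all tested genes. At an unadjusted p under 0.05 the count was 0 of 33, beside 4.93% of all genes. DESeq2 and limma-voom also called 0 of 33 members, beside 0.551% and 0.00627% of all genes. Log2 fold changes of siPiezo1 against siNC ran from -0.47 for Irs2 to 0.35 for Pik3r3, with a median of -0.02 over the members and -0.01 over all tested genes. A total of 18 members lay below 0, beside 52.0% of all genes, and 15 above. The groups did not overlap for 2 members, beside 11.9% of all genes, of which 1 was higher (6.24% of all genes) and 1 lower (5.65%).

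The intervals say how large a change these libraries leave room for. For 26 of 33 members the 95% interval of the fold change lay within a 1.5-fold change either way, beside 41.3% of all tested genes, and without siNC 2 for 28, beside 46.2%. With all libraries these included all 4 catalytic subunits, all 3 AKT and PDK1 genes and all 6 TSC-mTOR genes. The 7 exceptions were Pik3r3, Irs2, Gab1, Foxo1, Inpp4a, Phlpp1 and Phlpp2. The tightest interval among the kinases belonged to Akt1, from a fold of 0.865 to 1.10. Intervals are wider for genes with few counts, and the shares over all tested genes were not matched to the members by level.

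**Figure D1:**
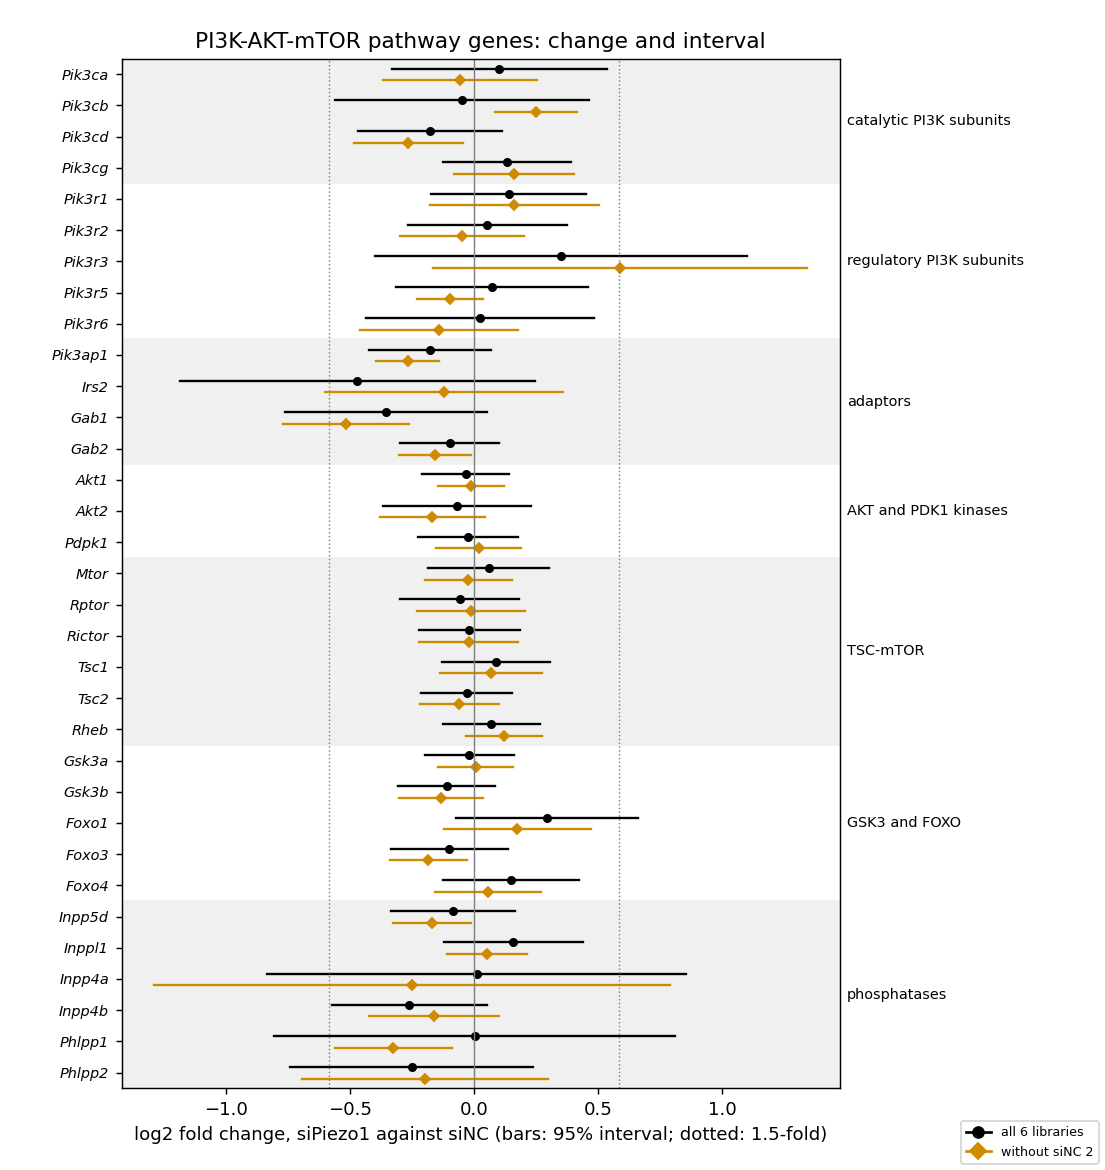
Log2 fold change of siPiezo1 against siNC for the 33 tested members, by class, with all 6 libraries (black circles) and without siNC 2 (orange diamonds); bars are 95% intervals and dotted lines mark a 1.5-fold change. With all 6 libraries every interval includes 0, and the 6 TSC-mTOR genes lie within the dotted lines.

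Without siNC 2 no member was called by edgeR, and more members had values below 0 than above. In edgeR's quasi-likelihood test 0 of 33 members were called there, beside 1.12% of all genes. At an unadjusted p under 0.05, 7 members were lower, beside 6.66% of all genes, and 1 was higher, beside 7.69%. The 7 were Pik3ap1, Gab1, Gab2, Pik3cd, Phlpp1, Foxo3 and Inpp5d, and the 1 was Pik3cb. In DESeq2 without siNC 2, a combination chosen after seeing the data, Pik3ap1 and Gab1 were called lower, beside 2.93% of all genes, and Pik3cb higher, beside 3.79%. The median of the members was then -0.06, and 22 of 33 lay below 0, beside 49.2% of all genes. Of the 10 macrophage markers, 7 lay below 0 and 3 above without siNC 2. There 3 were called lower by edgeR, among them Adgre1 and Fcgr1, beside 0.451% of all genes. Those above 0 were Itgam with a log2 fold change of 0.47 ± 1.05, Cd14 with 0.25 ± 0.10 and Lyz2 with 0.09 ± 0.05 (SE). Itgam stood at 1394, 261 and 284 CPM in siPiezo1 1, 2 and 3, and at 541 and 391 CPM in siNC 1 and 3. Exons of Gm49368 on the same strand cover 68.7% of its exon bases, and Gm49368 held a mean of 735 CPM by library totals. How counts were divided between these 2 genes was not tested. The part of the macrophage markers in the members' values was not tested.

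The members were near all tested genes in how often siNC 2 lay at an end of the order of libraries. It was the lowest of the 6 libraries for 12 of 33 members, beside 27.6% of all tested genes, and the highest for 7, beside 28.8%. Its median difference from the mean of siNC 1 and 3 was -0.18 on the log2 scale over the members and 0.00 over all genes. For Pik3ap1, Gab1, Gab2 and Pik3cd it lay within the range of the siPiezo1 libraries. Values of siNC 1 and 3 did not overlap those of siPiezo1 for 12 members, beside 33.3% of all genes.

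**Figure D2:**
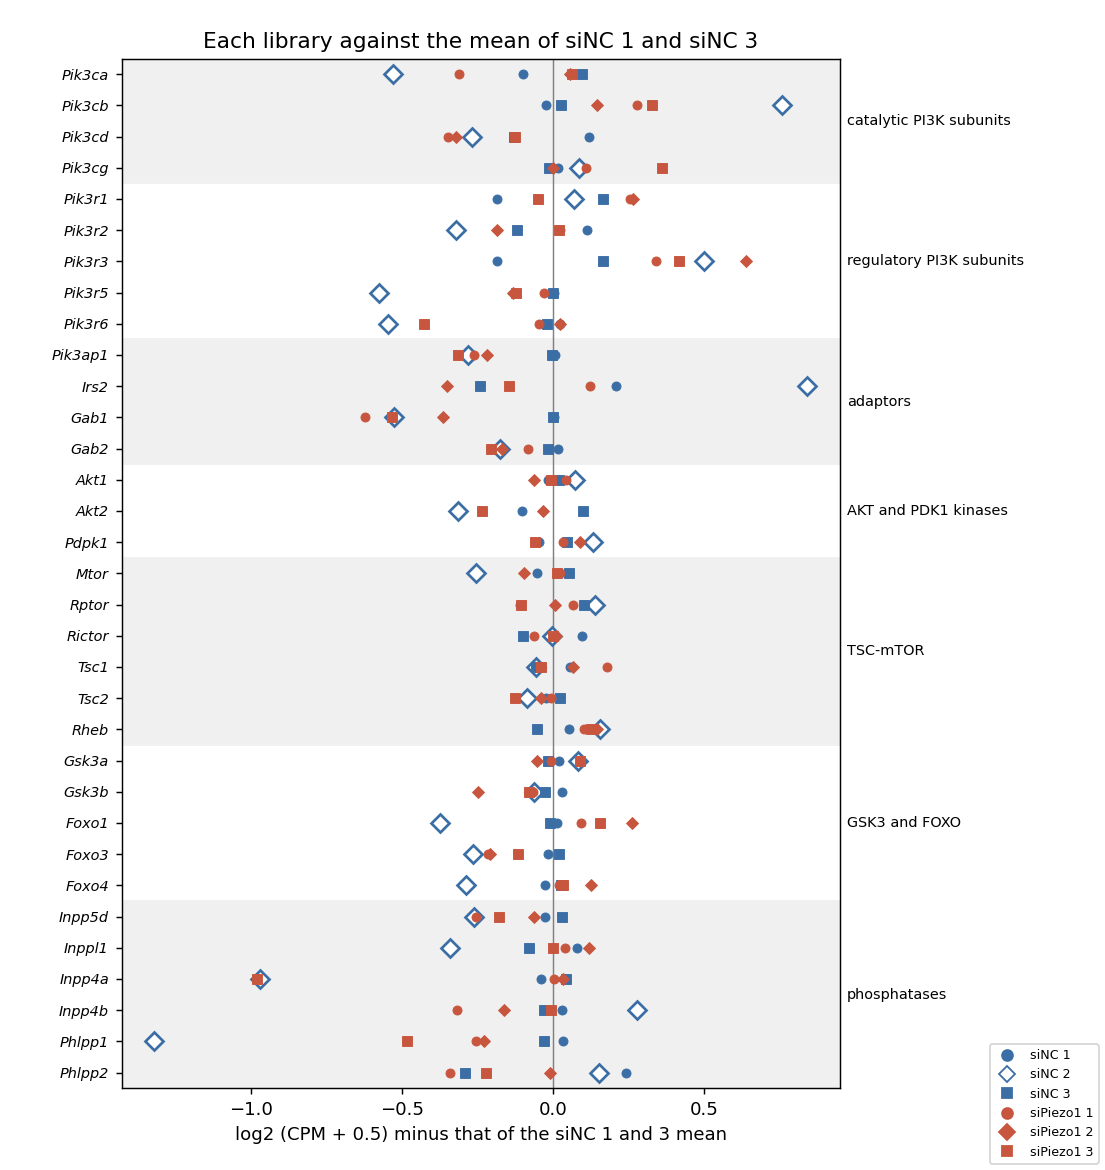
Level of each tested member in each of the 6 libraries, as log2 of CPM plus 0.5 minus that of the mean of siNC 1 and siNC 3 (blue, siNC; red, siPiezo1; open diamond, siNC 2). The open diamond lies far to the left for Phlpp1, Inpp4a and Pik3r5 and far to the right for Pik3cb and Irs2.

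Levels between genes were compared as CPM per kb of exon, which adjusts for gene length, taken as all exons of a gene merged. The highest member was Pik3ap1, the adaptor BCAP, at 97.3 ± 9.88 CPM per kb (SD over all 6 libraries). Akt1 followed at 69.9 ± 2.35 CPM per kb and Pik3r5 at 66.9 ± 9.19 CPM per kb. The lipid phosphatase gene Inpp5d, known as SHIP-1, stood at 43.6 ± 3.72 CPM per kb and Gsk3a at 36.6 ± 1.45 CPM per kb. By this length Akt1 and Pik3r5 did not differ beyond their spread, while Pik3ap1 lay above both in every library, and Inpp5d below both. By the longest transcript the means of Akt1 and Pik3r5 were 106.5 and 85.0 CPM per kb, so their comparison turns on the length used. At the other end stood Foxo1 at 1.56, Phlpp2 at 1.02 and Pik3r3 at 0.40 CPM per kb. Irs1, an insulin receptor substrate, was listed at 0 CPM in 4 libraries and at 0.159 and 0.0559 CPM in siNC 2 and siPiezo1 1. Of the 33 pairs of neighbours in this order, 25 had overlapping ranges.

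**Figure D3:**
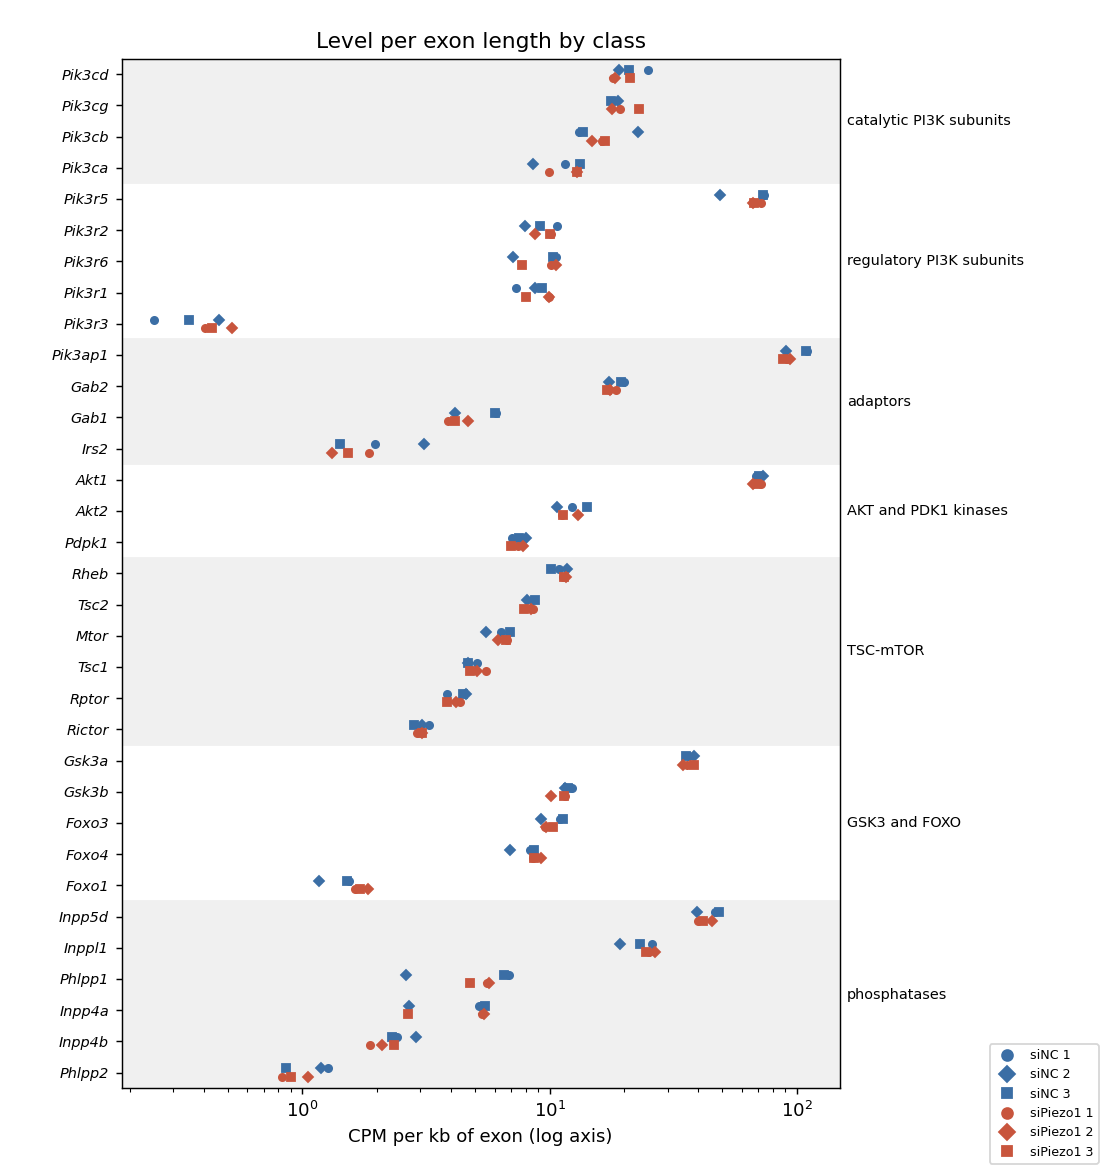
CPM per kb of exon (log axis) of 33 members in each library, ordered within class by mean level; the upper row of points of each gene is siNC (blue) and the lower row siPiezo1 (red). Pik3ap1, Akt1 and Pik3r5 hold the highest levels, and the points of Akt1, Pdpk1 and the TSC-mTOR class lie close together.

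The 4 catalytic subunits were all present, and the leukocyte-enriched delta and gamma isoforms had the highest means per length over the 6 libraries. In siNC 2 the beta isoform was the highest of the 4. Pik3cd stood at 20.4, Pik3cg at 19.1, Pik3cb at 16.3 and Pik3ca at 11.5 CPM per kb, and the ranges of each neighbouring pair overlapped. As shares of the summed level per kb of the 4 genes, Pik3cd held 27.5% to 36.9%, Pik3cg 26.7% to 31.1%, Pik3cb 19.5% to 32.8% and Pik3ca 12.3% to 20.2% over the libraries. The highest share of Pik3cb and the lowest of Pik3ca both belonged to siNC 2.

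Pik3cd, the delta isoform, stood at 156, 119 and 132 CPM in siNC against 113, 115 and 132 CPM in siPiezo1. Its groups overlapped, with a log2 fold change of -0.18 ± 0.12 with all libraries and -0.26 ± 0.10 without siNC 2 (SE). Pik3cb, the beta isoform, stood at 94.8, 163 and 98.2 CPM in siNC against 117, 107 and 121 CPM in siPiezo1. All siPiezo1 libraries lay above siNC 1 and 3 and below siNC 2, so the log2 fold change was -0.05 ± 0.21 with all libraries and 0.25 ± 0.07 without siNC 2 (SE). Without siNC 2 the Benjamini-Hochberg adjusted p of Pik3cb was 0.145 by edgeR and 0.0475 by DESeq2. A processed copy of Pik3cb, Gm12992, shares 522 bases with it at 99.6% identity and held 10.2 to 16.0 CPM, so the counts of Pik3cb are uncertain to that extent.

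Pik3cg, the gamma isoform activated through G protein-coupled receptors, stood at 152, 160 and 149 CPM in siNC against 162, 150 and 194 CPM in siPiezo1. Pik3ca, the ubiquitous alpha isoform, stood at 105, 77.7 and 120 CPM in siNC against 90.5, 117 and 117 CPM in siPiezo1. The groups overlapped for both genes. The log2 fold change of Pik3cg was 0.13 ± 0.11 with all libraries and 0.16 ± 0.10 without siNC 2, and that of Pik3ca 0.10 ± 0.18 and -0.06 ± 0.13 (SE).

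Among regulatory subunits, those of the gamma isoform differed widely in level. Pik3r5, which links the gamma catalytic subunit to G protein-coupled receptors, held 66.9% to 71.9% of the summed level per kb of the 5 regulatory genes. Pik3r6, the other regulatory partner of the gamma isoform, held 8.28% to 10.99%. Pik3r1 and Pik3r2, which stabilise the alpha, beta and delta subunits, held 7.1% to 11.9% and 8.9% to 10.8%. Pik3r3 held at most 0.63%.

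Pik3r5 stood at 407, 272 and 406 CPM in siNC against 398, 371 and 373 CPM in siPiezo1. The siPiezo1 libraries lay between siNC 2 and the other siNC libraries, with a log2 fold change of 0.07 ± 0.16 with all libraries and -0.10 ± 0.06 without siNC 2 (SE). Pik3r1 stood at 73.6, 87.9 and 93.9 CPM in siNC against 100.01, 101 and 80.7 CPM in siPiezo1, and the groups overlapped. Pik3r2 ran from 33.2 to 44.9 CPM and Pik3r6 from 25.8 to 38.5 CPM, also with overlap. Without siNC 2 the log2 fold change was 0.16 ± 0.14 for Pik3r1, -0.05 ± 0.11 for Pik3r2 and -0.14 ± 0.14 for Pik3r6 (SE). Pik3r3 had the smallest p of its class (0.304 unadjusted, edgeR's quasi-likelihood test), at 1.33, 2.45 and 1.84 CPM in siNC against 2.14, 2.75 and 2.29 CPM in siPiezo1. Its log2 fold change of 0.35 had a 95% interval from -0.40 to 1.10, and it was 0.59 without siNC 2 and 0.16 without siNC 1. All 5 regulatory genes lay above 0 with all libraries, with a median of 0.07, and 3 of 5 lay below 0 without siNC 2.

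The adaptors couple receptors to PI3K, and all 4 that were tested lay below 0 on the log2 scale, with or without siNC 2. The median was -0.27 with all libraries and -0.21 without siNC 2. Pik3ap1, which brings PI3K to Toll-like and antigen receptors, stood at 614, 502 and 609 CPM in siNC against 509, 525 and 491 CPM in siPiezo1. The siPiezo1 libraries lay below siNC 1 and 3, and siNC 2 lay among them. Its siPiezo1 mean was 88.4% of the siNC mean and 83.2% of the mean of siNC 1 and 3.

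Gab1, a docking protein that binds regulatory PI3K subunits below growth factor receptors, stood at 30.7, 21.1 and 30.7 CPM in siNC against 19.8, 23.7 and 21.1 CPM in siPiezo1. Here too siNC 2 lay among the siPiezo1 libraries. The log2 fold change was -0.35 ± 0.17 with all libraries and -0.51 ± 0.11 without siNC 2 (SE). It had the smallest unadjusted p of all members with 6 libraries (0.0791, edgeR's quasi-likelihood test).

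Without siNC 2 the Benjamini-Hochberg adjusted p of Pik3ap1 and Gab1 was 0.0710 and 0.0780 by edgeR, and 0.000339 and 0.00185 by DESeq2. Over all alternatives it reached 0.99995 for both.

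Gab2, the docking protein that is more abundant per length in these cells, stood at 123, 108 and 120 CPM in siNC against 115, 108 and 105 CPM in siPiezo1. The log2 fold change of Gab2 was -0.10 ± 0.08 with all libraries and -0.16 ± 0.06 without siNC 2 (SE), where all siPiezo1 libraries lay below siNC 1 and 3. Irs2, the insulin receptor substrate of myeloid cells, stood at 12.5, 19.6 and 9.0 CPM in siNC against 11.7, 8.30 and 9.64 CPM in siPiezo1. Its log2 fold change of -0.47 ± 0.30 moved to -0.12 ± 0.21 (SE) without siNC 2, which held the highest value.

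**Figure D4:**
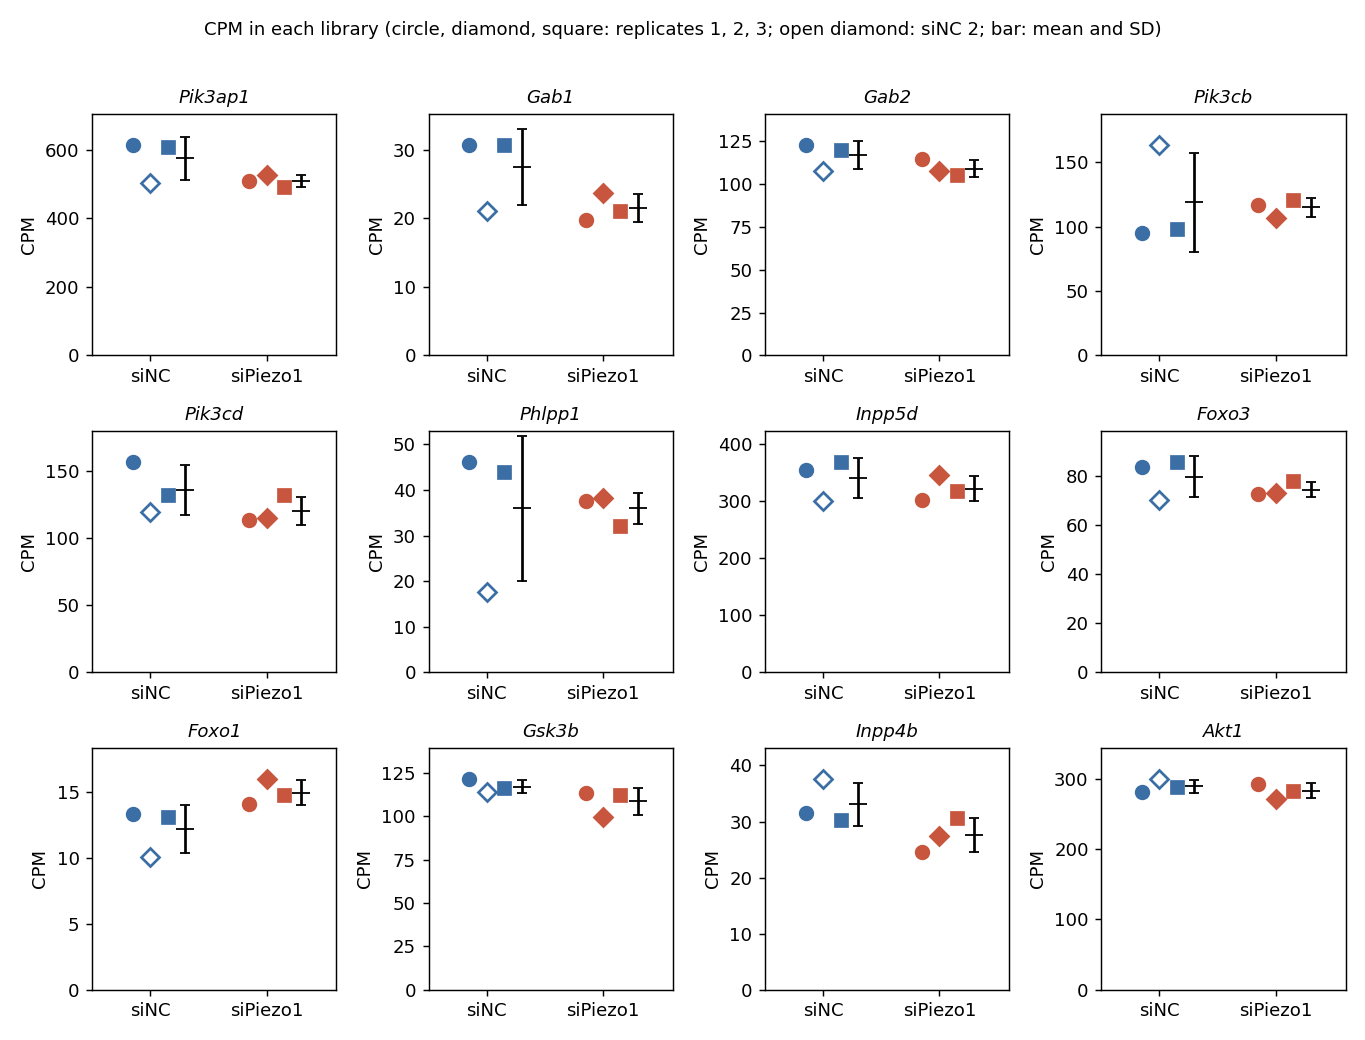
CPM of 12 members in each library (blue, siNC; red, siPiezo1; open diamond, siNC 2), with the mean and SD of each group of 3 beside the points and each axis starting at 0. For Pik3ap1, Gab1 and Gab2 the open diamond lies level with the siPiezo1 points, and for Akt1 the points of both groups lie between 272 and 300 CPM.

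Among the AKT and PDK1 genes, Akt1 and Pdpk1 varied little between libraries, and Akt2 varied more. Akt1 stood at 281, 300 and 289 CPM in siNC against 294, 272 and 284 CPM in siPiezo1. The groups overlapped, with a log2 fold change of -0.03 and a 95% interval from -0.21 to 0.14. Akt2, the isoform tied to insulin signalling, stood at 88.2, 76.2 and 101 CPM in siNC against 80.4, 92.6 and 80.5 CPM in siPiezo1. Without siNC 2 the log2 fold change was -0.01 ± 0.06 for Akt1 and -0.17 ± 0.09 for Akt2, which had -0.07 ± 0.12 with all libraries (SE).

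Akt1 held 76.2% to 79.6% of the summed level per kb of Akt1, Akt2 and Pdpk1 in every library, and the summed level itself ran from 87.2 to 92.2 CPM per kb. Pdpk1, which encodes PDK1, stood at 76.6 to 87.6 CPM over the 6 libraries, with a log2 fold change of -0.02 ± 0.08 with all libraries and 0.02 ± 0.07 without siNC 2 (SE). A copy, Akt2-ps, shares 1449 bases with Akt2 at 98.6% identity and held 3.86 to 6.40 CPM.

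The TSC-mTOR genes differed little between the groups, with log2 fold changes from -0.06 for Rptor to 0.09 for Tsc1 and a median of 0.02. Mtor, the kinase itself, stood at 64.6, 56.1 and 69.6 CPM in siNC against 68.1, 62.8 and 67.6 CPM in siPiezo1. Rptor, the scaffold of the growth-promoting complex, ran from 51.8 to 61.6 CPM over the 6 libraries. Rictor, its counterpart in the complex that phosphorylates AKT, ran from 48.0 to 55.0 CPM. These ranges span both groups, which overlapped for all 6 genes. Without siNC 2 the log2 fold changes of the class ran from -0.06 for Tsc2 to 0.12 ± 0.07 (SE) for Rheb, with Mtor at -0.02 and Tsc1 at 0.07.

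Tsc1 had the smallest p of its class (0.358 unadjusted, edgeR's quasi-likelihood test), at 60.1, 55.6 and 55.5 CPM in siNC against 65.5, 60.4 and 56.2 CPM in siPiezo1. Tsc2, its partner in the inhibitory complex, ran from 75.9 to 84.4 CPM. Rheb, the GTPase that TSC2 holds off, stood at 84.3, 90.5 and 78.2 CPM in siNC against 87.3, 89.8 and 88.7 CPM in siPiezo1. Its siPiezo1 values lay above siNC 1 and 3 and below siNC 2. Exons of Pkd1 on the opposite strand cover 7.20% of the exon bases of Tsc2, and Pkd1 held 68.2 to 107 CPM. Whether counting used the strand is not given in the sources used here.

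Among the targets that AKT inhibits, Foxo1 and Gsk3b were the members whose groups did not overlap. Foxo1 stood at 13.3, 10.1 and 13.1 CPM in siNC against 14.1, 15.9 and 14.8 CPM in siPiezo1, higher in each siPiezo1 library. Its log2 fold change was 0.30 ± 0.15 with all libraries and 0.18 ± 0.13 without siNC 2 (SE), with an adjusted p of 0.978 over 6 libraries (edgeR, Benjamini-Hochberg). Gsk3b stood at 121, 113.7 and 117 CPM in siNC against 113.5, 99.8 and 112 CPM in siPiezo1. The gap between the nearest libraries was small beside the spread within each group, and the log2 fold change was -0.11 ± 0.08 with all libraries and -0.13 ± 0.07 without siNC 2 (SE).

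Foxo3, the most abundant of the 3 FOXO genes at 10.2 CPM per kb, stood at 83.5, 70.2 and 85.6 CPM in siNC against 72.6, 72.9 and 77.9 CPM in siPiezo1. Its log2 fold change was -0.10 ± 0.10 with all libraries and -0.18 ± 0.07 without siNC 2 (SE). Foxo4 stood at 28.9, 24.0 and 30.0 CPM in siNC against 29.9, 32.2 and 30.1 CPM in siPiezo1, and the groups overlapped. Its log2 fold change was 0.15 ± 0.12 with all libraries and 0.06 ± 0.09 without siNC 2 (SE). Gsk3a ran from 101 to 111 CPM over all libraries, with a log2 fold change of -0.02 ± 0.08 (SE). Exons of 9130221H12Rik on the opposite strand cover 28.3% of the exon bases of Gsk3a, and that transcript held 3.11 to 6.31 CPM.

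The phosphatase genes differed in how far their libraries spread. Inpp5d, the haematopoietic lipid phosphatase, stood at 354, 301 and 368 CPM in siNC against 302, 345 and 318 CPM in siPiezo1, with overlap between the groups. Its log2 fold change was -0.08 ± 0.11 with all libraries and -0.17 ± 0.07 without siNC 2 (SE). Inppl1, its broadly expressed relative, stood at 165, 123 and 148 CPM in siNC against 161, 170 and 157 CPM in siPiezo1, with a log2 fold change of 0.16 ± 0.12 with all libraries and 0.05 ± 0.07 without siNC 2 (SE). Exons of Gm10602 on the opposite strand cover 18.8% of the exon bases of Inppl1, and that transcript held 0.957 to 4.02 CPM.

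Phlpp1, an AKT phosphatase, stood at 46.1, 17.7 and 44.1 CPM in siNC against 37.6, 38.3 and 32.1 CPM in siPiezo1. The group means were 36.0 ± 15.8 and 36.0 ± 3.41 CPM (SD, n = 3), and siNC 2 lay far below every other library. Without siNC 2 the log2 fold change was -0.33 ± 0.10 (SE), and the adjusted p was 0.182 (edgeR, Benjamini-Hochberg). Phlpp2, its less abundant relative, ran from 6.99 to 10.7 CPM, with a log2 fold change of -0.25 ± 0.21 with all libraries and -0.20 ± 0.22 without siNC 2 (SE).

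Inpp4a and Inpp4b remove a phosphate from phosphatidylinositol bisphosphate, a product of the SHIP phosphatases. Inpp4a took 1 of 2 levels, at 27.7 and 28.0 CPM in siPiezo1 3 and siNC 2 and at 53.6 to 56.9 CPM in the other 4 libraries. This split crossed the groups, and the 95% interval of its log2 fold change ran from -0.83 to 0.86. The value itself was 0.01 ± 0.35 with all libraries and -0.25 ± 0.37 without siNC 2 (SE). Inpp4b had the smallest p of its class (0.0891 unadjusted, edgeR's quasi-likelihood test), at 31.5, 37.5 and 30.2 CPM in siNC against 24.6, 27.5 and 30.7 CPM in siPiezo1. Its groups overlapped, and the log2 fold change of -0.26 ± 0.13 was -0.16 ± 0.11 (SE) without siNC 2.

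Beyond the members, 126 other genes of the pathway were tested in 6 lists, and edgeR called 0 of them over the 6 libraries. At an unadjusted p under 0.05, 4 were higher and 6 lower, beside 2.52% and 2.41% of all genes, and DESeq2 called 1, Ccnd1, lower, beside 0.263%. Their median log2 fold change was 0.01. Without siNC 2, edgeR called 1 of the 126 lower, Ccnd1, beside 0.451% of all genes, and 1 higher, Cited2, beside 0.664%. The adjusted p of Cited2 was then 0.0125 (edgeR, Benjamini-Hochberg). At an unadjusted p under 0.05 in the same edgeR fit, 8 of the 126 were higher and 18 lower, beside 7.69% and 6.66% of all genes. DESeq2 without siNC 2 called 3 higher and 8 lower, beside 3.79% and 2.93%.

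Cited2, a transcriptional coregulator that FOXO factors can induce, stood at 49.6, 63.8 and 47.8 CPM in siNC against 81.1, 73.6 and 74.8 CPM in siPiezo1. All siPiezo1 values lay above all siNC values, with siNC 2 nearest to them. For Cited2 the log2 fold change was 0.51 ± 0.13 with all libraries and 0.65 ± 0.08 without siNC 2 (SE). Of the 23 AKT substrates and FOXO targets, 12 lay below 0 and 11 above with all libraries. Cdkn1a, a CDK inhibitor gene whose protein AKT phosphorylates, stood at 217, 257 and 235 CPM in siNC against 179, 213 and 192 CPM in siPiezo1, without overlap and with a log2 fold change of -0.28 ± 0.10 (SE). Without siNC 2, 10 of the 23 lay below 0 and 13 above. There 6 were higher and 6 lower at an unadjusted p under 0.05 (edgeR), beside 7.69% and 6.66% of all genes. DESeq2 without siNC 2 called 3 of the 23 higher and 4 lower, beside 3.79% and 2.93% of all genes.

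Of 30 tested genes of the mTOR complexes and nutrient sensing, 3 were higher and 2 lower at an unadjusted p under 0.05, beside 2.52% and 2.41% of all genes. Mapkap1, which encodes the SIN1 subunit of the complex that phosphorylates AKT, stood at 39.9, 40.4 and 32.2 CPM in siNC against 46.0, 47.9 and 44.5 CPM in siPiezo1. Sesn3, a sestrin that restrains mTOR, stood at 7.85, 6.71 and 9.39 CPM in siNC against 10.1, 12.1 and 10.7 CPM in siPiezo1. Both were higher in every siPiezo1 library. The other 3 were Tti1, with a log2 fold change of 0.46 ± 0.18, Rraga with -0.26 ± 0.11 and Prr5l with -0.99 ± 0.35 (SE), the last under 3 CPM throughout. Without siNC 2, 1 of the 30 was higher and 2 lower at that unadjusted p (edgeR), beside 7.69% and 6.66% of all genes. DESeq2 without siNC 2 called 1 of the 30 lower, beside 2.93%.

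Of 23 receptors and proximal kinases, 1 was lower at an unadjusted p under 0.05, beside 2.41% of all genes. This was Il4ra, the interleukin-4 receptor chain, at 153, 184 and 163 CPM in siNC against 127, 149 and 130 CPM in siPiezo1, without overlap. Without siNC 2, 1 of the 23 was higher and 2 lower at that p (edgeR), beside 7.69% and 6.66% of all genes. Csf1r, the receptor that drives macrophage growth through PI3K, stood at 4447, 2290 and 4547 CPM in siNC against 4463, 3946 and 4142 CPM in siPiezo1, with only siNC 2 far off.

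Of 14 AKT relatives and modulators, 1 was lower at that p, beside the same 2.41%. This was Trib1, a pseudokinase gene, at 21.4, 19.0 and 18.5 CPM in siNC against 13.7, 14.0 and 16.1 CPM in siPiezo1, without overlap and with a fold change of -0.43 ± 0.12 on the log2 scale (SE). Without siNC 2, Sgk3, an AKT-related kinase, had a log2 fold change of -0.40 ± 0.08 (SE), with an adjusted p of 0.0666 (edgeR, Benjamini-Hochberg). DESeq2 without siNC 2 called 2 of the 14 lower, beside 2.93% of all genes. Of 20 other phosphoinositide enzymes and 16 mTORC1 outputs, 0 reached an unadjusted p under 0.05 in edgeR's test on 6 libraries, and DESeq2 called 0. Without siNC 2 there were 4 lower in the former list and 2 in the latter at that unadjusted p, beside 6.66% of all genes. Among these, Pip4k2b, a lipid kinase, had -0.18 ± 0.06 and Tfe3, a transcription factor that mTOR holds in the cytoplasm, -0.26 ± 0.06 (SE). DESeq2 without siNC 2 called 0 of the 20 phosphoinositide enzymes and 1 of the 16 mTORC1 outputs lower, beside 2.93% of all genes.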

How the data were processed

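Poly(A) RNA of 6 libraries was sequenced. Per the submitters' processing notes, the authors' tools were cutadapt 1.9, HISAT2 2.0.4, StringTie 1.3.4d, DESeq2 and edgeR, with build GRCm39. What each tool did, the annotation release and any strand setting were not given in the sources used here. In this series the authors deposited estimated counts per Ensembl gene as whole, unscaled numbers. One fragment was worth about 4 counts, so totals correspond to 15.7 to 19.3 M fragments. The design assumed counts; estimated counts were used in the same test, and they needed no rounding. Of 55401 identifiers, 55141 were named from GENCODE M21, whose exon lengths (build GRCm38) gave CPM per kb. All 6 samples were grouped by title.

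Genes passing filterByExpr (edgeR 4.0.16, R 4.3.3) were scaled with TMM and tested by the robust quasi-likelihood test with group as the only term, with Benjamini-Hochberg adjustment over all 15959 tested genes (threshold 0.05). SE was derived from the fold change and its F statistic, and intervals are 95%. Libraries of 1 group differed by more than sampling noise. Copies were sought at 95% identity or more over at least 300 bases. Members, classes and lists were chosen with earlier results of these data known. Every library was printed for the catalytic and AKT genes, the smallest p per class, members at an unadjusted p under 0.05 with 6 libraries or without siNC 2, and members without overlap; further members were added for level. Other pathway genes were named by unadjusted p, at most 4 per list with 1 exception. For mTOR complexes and nutrient sensing, every gene under 0.05 with 6 libraries was named. Csf1r was added after its values were seen. Alternatives were other scalings and filters, DESeq2 1.42.0, limma-voom (limma 3.58.1) with and without library weights, counts divided by 4, the replicate number as a block, and each library left out. Division by 4 was run in edgeR only, so the DESeq2 calls were not checked on that scale. The edgeR test was also run on simulated counts. These held no library apart like siNC 2 and no step of about 4 counts per fragment, so they do not bear on either.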

Additional observations from a re-analysis of the deposited data

How the results depend on the processing

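The count of members past the threshold was 0 under every other setting tried, and 3 in DESeq2 with siNC replicate 2 left out, which was added after seeing the data. The count over all genes, 1 in the reported test, was 0 with library totals alone, 0 with the replicate block, 4 with limma-voom and library weights, 88 in DESeq2, 1073 in DESeq2 with siNC 2 left out, and 0 to 178 when each library was left out, with the 178 without siNC 2. Deviations of same-numbered libraries from their group means correlated at 0.03, -0.06 and -0.09. With 3 libraries per group, these values cannot settle whether the replicate numbers pair the samples. With the replicate block 0 members were called and 33 of 33 kept their sign. The kept signs say nothing on pairing, because a balanced block leaves the group difference nearly unchanged. The median of the TSC-mTOR class was -0.011 with library weights and -0.017 to 0.051 with each library left out. The median level per length was 11.7 CPM per kb with the longest transcript. Piezo1 and Ccnd1 passed the threshold in DESeq2 and without siNC 2 (log2 fold change -0.73 and -0.95).

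The sign turned for members near 0. With library weights the log2 fold change was -0.024 for Pik3ca, 0.20 for Pik3cb, -0.028 for Pik3r2, -0.061 for Pik3r5, -0.10 for Pik3r6, 0.015 for Pdpk1, -0.0069 for Mtor, 5.4e-05 for Gsk3a, -0.23 for Inpp4a and -0.23 for Phlpp1. For Phlpp1 it was -0.00040 with DESeq2's size factors, -0.00088 with at least 50 counts in 3 libraries and -0.00063 in DESeq2. With each library left out in turn it ran from -0.057 to 0.25 for Pik3ca, -0.19 to 0.25 for Pik3cb, -0.048 to 0.17 for Pik3r2, -0.10 to 0.17 for Pik3r5, -0.14 to 0.15 for Pik3r6, -0.17 to 0.040 for Akt2, -0.068 to 0.019 for Pdpk1, -0.022 to 0.13 for Mtor, -0.066 to 0.032 for Rictor, -0.060 to 0.0047 for Tsc2, -0.059 to 0.012 for Gsk3a, -0.25 to 0.28 for Inpp4a and -0.33 to 0.22 for Phlpp1. Leaving out siNC 2 turned the sign of 10 members, and the cause was not tested.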
